A study of Mus musculus with 11 samples.

Results

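Gene expression in hippocampal astrocytes was compared between gonadally intact female mice that lacked estrogen receptor beta (ERβ) in astrocytes, ERβ cKO (sham), and WT (sham) mice. The comparison takes 7 of the 11 libraries of the series, 4 from ERβ cKO (sham) mice, numbered F1, F3, F4 and F5, and 3 from WT (sham) mice, numbered F1, F3 and F4, each from 1 mouse aged 12 to 14 months. A gene was left out where its count was under 1 in more than 3 of these 7 libraries, which left 19938 of 39017 gene identifiers. Of these, 8112 had a mean CPM (count scaled to the size of its library) of 20 or more over the 7 mice and are called well expressed here. They are the main subject of what follows, since low genes of the choroid plexus and copies of the enolase gene head the ranking over all genes.

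All 7 mice were on the C57BL/6J background and had sham surgery. All carried Cre under the mouse Gfap promoter (the 77.6 line) and the RiboTag allele of Rpl22, a ribosomal protein gene. Cre makes the RiboTag allele give RPL22 with an HA tag, and an antibody to HA then pulls ribosomes and their bound RNA from homogenized tissue. ERβ cKO (sham) mice were in addition homozygous for Esr2 with a floxed exon 3. The methods name breeding pairs for these mice in which both parents carried that allele, and pairs without it for the other astrocyte RiboTag mice, while also saying that littermates were assigned to groups at random. Whether the WT (sham) mice of these libraries were littermates of the ERβ cKO (sham) mice is not stated, and the part of the breeding line was not tested. The remaining 4 libraries, WT (GDX), are from gonadectomized WT mice of the same age. They are used for their levels and, as an alternative setting, in a fit to all 11 libraries.

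ERβ is a nuclear receptor that, bound to estrogen, acts on genes through estrogen response elements in DNA or through other DNA-bound factors. Astrocytes take up glutamate and potassium, hold water channels at the vessel wall, supply cholesterol and lactate to neurons and secrete factors that act on synapses. The transcription factors Sox2 and Sox9 are kept from neural stem cells into mature astrocytes.

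Esr2, which encodes ERβ, was close to the counting limit in both groups, with 1, 0, 4 and 0 counts in ERβ cKO (sham) mice, against 2, 4 and 0 counts in WT (sham) mice. Counts per gene do not separate exon 3, so these values do not check the deletion. Rpl22 had 1570, 1244, 1164 and 1634 counts in ERβ cKO (sham) mice, against 1256, 1257 and 1090 in WT (sham) mice (exact two-sided permutation test, p = 0.257, where 0.0571 is the smallest p that 4 mice against 3 allow). Library totals ranged from 16956233 to 18190968 counts. All 20 astrocyte markers examined were well expressed, and their summed level was 26837 to 32982 CPM in ERβ cKO (sham) mice, against 31084 to 35705 CPM in WT (sham) mice. Neuron markers were present too, at 9963 to 12326 CPM in ERβ cKO (sham) mice, against 10463 to 11721 CPM in WT (sham) mice.

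Over all genes, 6 of 19938 changed at an adjusted p under 0.1 (edgeR's quasi-likelihood test with Benjamini-Hochberg adjustment), which is 0.0301%. The 3 that rose (0.015%) were Gm4735, Megf6 and Eno1. The 3 that fell (0.015%) were Clic6, Kcnj13 and Slc4a5, genes of the choroid plexus epithelium that were low in WT (GDX) mice too (levels given with the markers below). Among the 6, the 1 well-expressed gene (0.0123% of 8112) was Eno1, a glycolytic enolase (chromosome 4 of mm10 from 150236721 to 150248879). Of the 8112, 0 fell (0%, with 155 lower at an unadjusted p under 0.05 and 6 called lower by DESeq2). Eno1 was at 84.6, 86.7, 77.7 and 105 CPM in ERβ cKO (sham) mice, against 54.9, 43.8 and 54.0 CPM in WT (sham) mice. The log2 fold change was 0.80 (SE 0.14, 95% interval 0.52 to 1.08, adjusted p = 0.0365). The call was lost without WT (sham) F3 (adjusted p = 0.377). Eno1b and Gm4735 are near-identical copies of Eno1, and how reads that match several of them were counted is not stated. Its summed level with Eno1b and Gm4735 was 118 ± 16.1 CPM (SD, n = 4) in ERβ cKO (sham) mice and 83.7 ± 13 CPM (SD, n = 3) in WT (sham) mice.

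The well-expressed genes differed little as a whole. Their log2 fold changes, ERβ cKO (sham) over WT (sham), had a median of -0.01, and the middle 95% lay between -0.28 and 0.35. The median SE was 0.14 and the median 95% interval reached 0.28 to each side, so differences of most single genes in this range were not detectable at this depth and number of mice. At an unadjusted p under 0.05, a description and not a call, there were 352 well-expressed genes (4.34%), 197 of them higher (2.43%) and 155 lower (1.91%). Over all 19938 genes the count was 1062 (5.33%), 645 higher (3.24%) and 417 lower (2.09%). Groups did not overlap for 367 well-expressed genes (4.52%), 172 higher (2.12%) and 195 lower (2.4%). Over all well-expressed genes 47.5% had a positive log2 fold change and 52.5% a negative one. Close to the limit of 20 CPM, Lrp5 lay just outside (log2 fold change -0.34), and Rpl30 and Lrrk2 just inside (0.14 and -0.05).

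On the log2 scale 8 well-expressed genes were above 1 and 2 were below -1. Some of them, such as Adgrf5 and Ttr, met the mean of 20 CPM only through the group where they were high. Of the 8, Pabpc1, which encodes a cytoplasmic poly(A) binding protein, and the processed pseudogenes Gm6548 and Gm11560 stood high in 1 library, and are named after their values were seen. Both pseudogenes met the mean of 20 CPM only through that library. Pabpc1 was at 502 CPM in ERβ cKO (sham) F1 and at 71.5 to 78.9 CPM in the other ERβ cKO (sham) mice, against 69.9 to 77.7 CPM in WT (sham) mice. Gm6548 was at 124 CPM in ERβ cKO (sham) F1, against 3.40 to 5.45 CPM in WT (sham) mice, and the adjusted p was 0.966 for each of these 3 genes. Without ERβ cKO (sham) F1 the log2 fold changes of Gm6548 and Gm11560 were -0.11 and -0.08. Pdgfra, also above 1, was highest in that mouse too, at 54.3 CPM, against 12.3 to 35.2 CPM in the other ERβ cKO (sham) mice. In WT (sham) mice it was at 12.7 to 20.2 CPM. The 2 lower ones, Ttr and Enpp2, are genes of the choroid plexus.

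The 15 well-expressed genes with the smallest p among those lower in every ERβ cKO (sham) mouse than in every WT (sham) mouse held both astroglial Sox factors. None of the 15 passed the test, so the values below describe these 7 mice. Sox2, on chromosome 3, encodes a transcription factor that maintains neural stem cells. Its promoter window (250 bases before to 50 after the RefSeq start, build GRCm38.p6, chr3:34649745-34650044, plus strand) is shown because Sox2 had the smallest p among the lower genes once enolase was set aside, and the capitals mark its only GGTCA motif or the reverse complement TGACC.

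Sox2: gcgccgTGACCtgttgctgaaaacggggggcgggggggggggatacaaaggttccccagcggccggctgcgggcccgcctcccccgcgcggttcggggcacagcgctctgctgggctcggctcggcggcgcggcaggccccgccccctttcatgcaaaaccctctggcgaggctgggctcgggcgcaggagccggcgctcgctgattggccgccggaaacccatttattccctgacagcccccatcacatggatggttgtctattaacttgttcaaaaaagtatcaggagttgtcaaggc

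Sox2 was at 74.7, 89.7, 92.8 and 103 CPM in ERβ cKO (sham) mice, against 126, 128 and 152 CPM in WT (sham) mice. The log2 fold change was -0.58 (SE 0.13, 95% interval -0.85 to -0.31, adjusted p = 0.196). Sox9, a partner of Sox2 in gliogenesis and a defining factor of astrocytes (chromosome 11), was at 104, 102, 120 and 137 CPM in ERβ cKO (sham) mice, against 146, 163 and 188 CPM in WT (sham) mice. Its log2 fold change was -0.52 (SE 0.13, adjusted p = 0.393). For both genes ERβ cKO (sham) F5 was the highest of its group and WT (sham) F4 the highest of all.

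Gabra2, the alpha 2 subunit of the GABA A receptor, showed the widest gap among the lower genes outside the choroid plexus. It was at 112, 78.2, 61.9 and 118 CPM in ERβ cKO (sham) mice, against 154, 210 and 190 CPM in WT (sham) mice (log2 fold change -1.0, SE 0.21, adjusted p = 0.339). The highest ERβ cKO (sham) mouse, F5, lay below the lowest WT (sham) mouse, F1. In WT (GDX) mice, on a scale set over all 11 libraries, Gabra2 was at 184 to 196 CPM, within 153 to 209 CPM of the WT (sham) mice on that scale.

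Of the other genes among these 15, Aldh1a1, which oxidizes retinaldehyde to retinoic acid, was at 103, 92.0, 115 and 125 CPM in ERβ cKO (sham) mice, against 154, 150 and 155 CPM in WT (sham) mice (log2 fold change -0.50, SE 0.12, adjusted p = 0.372). Dhrs3, which reduces retinaldehyde to retinol, was at 25.2, 29.2, 31.6 and 41.3 CPM in ERβ cKO (sham) mice, against 49.4, 45.6 and 43.0 CPM in WT (sham) mice (log2 fold change -0.53, SE 0.15, adjusted p = 0.566). For Aldh1a1 the WT (sham) mice lay close together, while for Dhrs3 ERβ cKO (sham) F5 came close to WT (sham) F4.

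Wnt7a, a secreted Wnt ligand, was at 22.5, 27.2, 26.7 and 36.9 CPM in ERβ cKO (sham) mice, against 42.8, 39.2 and 41.4 CPM in WT (sham) mice (log2 fold change -0.54, SE 0.15, adjusted p = 0.565). Fabp7, the brain fatty acid binding protein of radial glia and astrocytes, was at 24.5, 24.6, 17 and 32.7 CPM in ERβ cKO (sham) mice, against 37.9, 47.0 and 33.1 CPM in WT (sham) mice, and the groups all but touched. Padi2, which turns arginine into citrulline in proteins, averaged 133 ± 30.4 CPM (SD, n = 4) in ERβ cKO (sham) mice and 196 ± 9.62 CPM (SD, n = 3) in WT (sham) mice. Lrig1, a membrane protein that restrains EGF receptor signals, Tlr3, a sensor of double-stranded RNA, Dlk1, an imprinted EGF-like membrane protein, and Gskip, which binds the kinase GSK3 beta, had log2 fold changes between -0.52 and -0.45 with adjusted p of 0.451 to 0.531. Eno1b, Enpp2 and Ttr completed the 15, and Ttr met the limit of 20 CPM only through the WT (sham) mice.

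**Figure D1:**
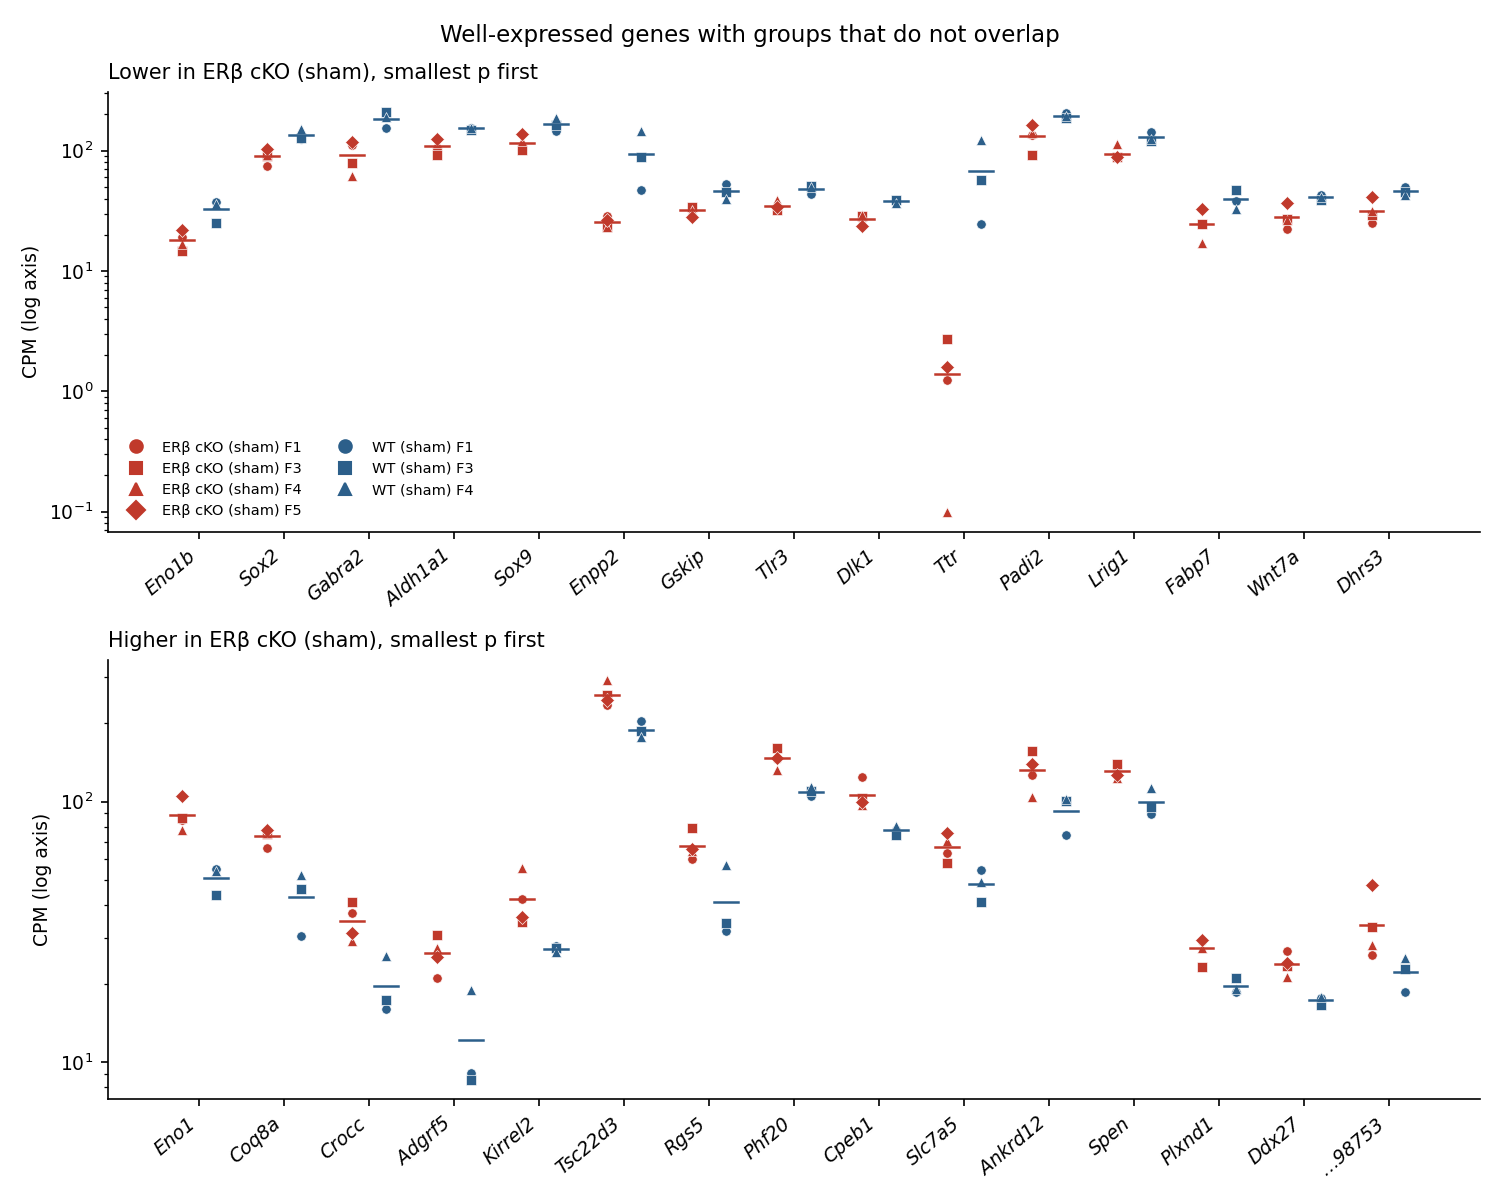
CPM on a log axis of the 15 lower (top) and 15 higher (bottom) well-expressed genes with groups that do not overlap, in order of p, with ERβ cKO (sham) mice in red left of WT (sham) mice in blue, a marker shape for each mouse number, and short lines at the group means. Ttr in ERβ cKO (sham) F4, listed at 0, is drawn at 0.1, and the last gene of the lower row is an identifier with no name. Sox2 lay at 74.7 to 103 CPM in ERβ cKO (sham) mice and at 126 to 152 CPM in WT (sham) mice, and Coq8a at 66.4 to 78.0 CPM in ERβ cKO (sham) mice and at 30.6 to 52.1 CPM in WT (sham) mice.

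Among the 15 leading higher genes Coq8a followed Eno1. It encodes a mitochondrial kinase-like protein needed to make coenzyme Q, an electron carrier of the respiratory chain. Of its 2 RefSeq windows, the one with a GGTCA or TGACC motif is shown to stand beside that of Sox2 (GRCm38.p6, chr1:180193436-180193735, minus strand, motif in capitals).

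Coq8a: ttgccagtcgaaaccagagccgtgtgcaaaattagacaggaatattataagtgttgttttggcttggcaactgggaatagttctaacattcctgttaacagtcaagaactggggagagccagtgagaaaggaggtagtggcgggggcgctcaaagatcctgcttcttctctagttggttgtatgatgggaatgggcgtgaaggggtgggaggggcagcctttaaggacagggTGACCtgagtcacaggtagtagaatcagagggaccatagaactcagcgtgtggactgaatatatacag

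Coq8a was at 66.4, 75, 75.4 and 78.0 CPM in ERβ cKO (sham) mice, against 30.6, 46.0 and 52.1 CPM in WT (sham) mice. Its log2 fold change was 0.78 (SE 0.16, 95% interval 0.46 to 1.11, adjusted p = 0.122). All ERβ cKO (sham) mice lay above all WT (sham) mice, and WT (sham) F1 was the lowest mouse. Cdc42bpa lies on the opposite strand and overlaps Coq8a, and whether the counting used strand is not stated. Cdc42bpa itself had a log2 fold change of -0.03 (SE 0.12).

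The estrogen response element in its full form, GGTCA and TGACC with 3 bases between, was in 23 of 32851 RefSeq promoter windows of this length (0.0700%) and in none of the 34 windows that matched 24 of the 30 leading genes. The single motif GGTCA, read on both strands, was in 13299 windows (40.5%) and in 13 of those 34, from 10 genes. These were Aldh1a1, Ankrd12, Coq8a, Eno1, Fabp7, Phf20, Plxnd1, Rgs5, Sox2 and Tsc22d3. The full element contains the single motif. The glucocorticoid element, AGAACA and TGTTCT with 3 bases between, was in 3 windows (0.00913%) and in none of the 34. A match is a run of letters and not a measured binding site, and the factor itself was not measured.

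Of the other leading higher genes, Adgrf5, an adhesion receptor of endothelium, was at 20.9, 30.8, 27.3 and 25.3 CPM in ERβ cKO (sham) mice, against 9.05, 8.56 and 18.8 CPM in WT (sham) mice (log2 fold change 1.10, SE 0.26, adjusted p = 0.393). Rgs5, a regulator of G protein signals in pericytes, was at 60.4, 79.4, 64.3 and 65.6 CPM in ERβ cKO (sham) mice, against 31.8, 34.2 and 57.1 CPM in WT (sham) mice (log2 fold change 0.72, SE 0.18, adjusted p = 0.451). In both, WT (sham) F4 stood close to the ERβ cKO (sham) mice, and for Adgrf5 every WT (sham) mouse was under the limit of 20 CPM. Plxnd1, a semaphorin receptor of endothelium, was at 23.2 to 29.5 CPM in ERβ cKO (sham) mice, against 18.5 to 21 CPM in WT (sham) mice (adjusted p = 0.627). Slc7a5, a carrier of large neutral amino acids that is abundant in brain endothelium, was at 63.6, 57.9, 70.5 and 75.6 CPM in ERβ cKO (sham) mice, against 54.7, 41.2 and 48.9 CPM in WT (sham) mice (adjusted p = 0.566).

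Tsc22d3, which encodes the glucocorticoid-induced leucine zipper, was at 235, 256, 293 and 245 CPM in ERβ cKO (sham) mice, against 204, 186 and 176 CPM in WT (sham) mice. The log2 fold change was 0.45 (SE 0.12, adjusted p = 0.451). Levels in WT (GDX) mice were 532, 536, 579 and 304 CPM on the scale over 11 libraries, above those of all sham mice. Crocc, the rootletin of the ciliary rootlet, was at 37.4, 41.0, 29.0 and 31.3 CPM in ERβ cKO (sham) mice, against 15.9, 17.2 and 25.5 CPM in WT (sham) mice (log2 fold change 0.83, SE 0.18, adjusted p = 0.177).

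Phf20, a chromatin reader, averaged 146 ± 11.6 CPM (SD, n = 4) in ERβ cKO (sham) mice and 109 ± 4.32 CPM (SD, n = 3) in WT (sham) mice. Cpeb1, which binds cytoplasmic polyadenylation elements, averaged 106 ± 12.3 CPM (SD, n = 4) in ERβ cKO (sham) mice and 77.8 ± 3.05 CPM (SD, n = 3) in WT (sham) mice. Spen, a transcriptional repressor with RNA binding domains, Ankrd12, an ankyrin repeat protein of the nucleus, and Ddx27, a nucleolar RNA helicase, had log2 fold changes of 0.40 to 0.51 and adjusted p of 0.566 to 0.689. Kirrel2, an adhesion protein of the immunoglobulin family, was at 34.6 to 55.4 CPM in ERβ cKO (sham) mice, against 26.4 to 27.8 CPM in WT (sham) mice. Its level in WT (GDX) mice was 30.8 to 74.4 CPM, which spans the ERβ cKO (sham) values.

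Of the 30 leading genes, 5 lie on the distal end of chromosome 4 within 15 Mb of Rpl22, the gene that carries the RiboTag allele in all mice. They are Eno1, 2.09 Mb away, Dhrs3 at 7.43 Mb, Spen at 10.9 Mb, Crocc at 11.3 Mb and Padi2 at 11.4 Mb. Megf6, 1 of the 6 genes that changed, is 1.84 Mb from Rpl22. Within 15 Mb, 17 of 121 well-expressed genes (14.0%) had an unadjusted p under 0.05, 11 higher and 6 lower, beside 4.34% of all 8112. Within 5 Mb the count was 11 of 72 (15.3%), and within 20 Mb it was 21 of 169 (12.4%). Within 15 Mb of Esr2, the floxed gene on chromosome 12, the count was 7 of 106 (6.6%). Chromosome 4 as a whole had 40 of 510 (7.84%), and the next highest share was 5.65%, on chromosome 12. The windows were set after these positions were seen, neighbouring genes are not independent, and no test was made.

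Levels in WT (GDX) mice stood nearer to the WT (sham) mean than to the ERβ cKO (sham) mean for 16 of those 17 genes near Rpl22, and for 272 of the other 335 well-expressed genes with an unadjusted p under 0.05 (81.2%). Crocc was at 11.6 to 22.7 CPM in WT (GDX) mice, Padi2 at 185 to 210 CPM and Dhrs3 at 45.0 to 54.1 CPM. Each of these ranges lay on the WT (sham) side of every ERβ cKO (sham) mouse.

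**Figure D2:**
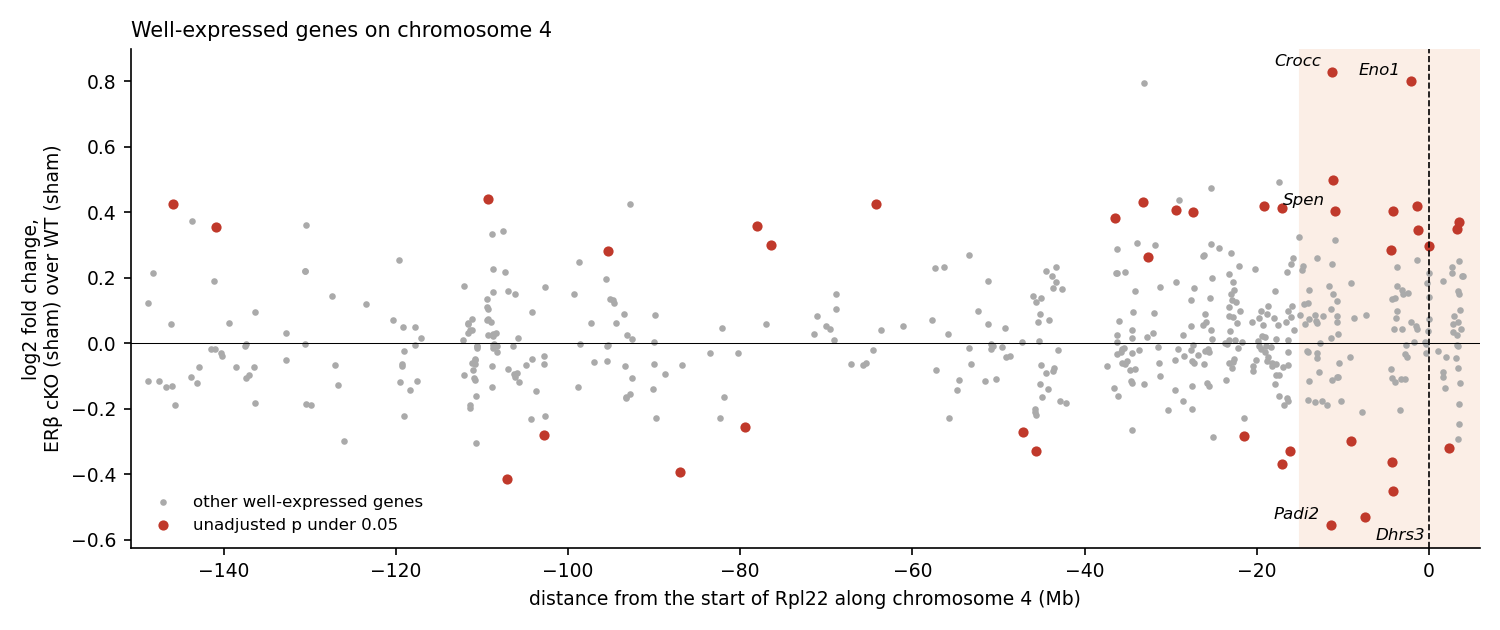
Log2 fold change, ERβ cKO (sham) over WT (sham), of the 510 well-expressed genes on chromosome 4 against the distance of their start from that of Rpl22 in Mb, with genes at an unadjusted p under 0.05 in red and the 15 Mb around Rpl22 shaded. Of the 121 genes in the shaded stretch 17 are red, and the 5 named ones are among the 30 leading genes.

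The functional lists held 37 groups of genes, and no member of any of them passed the test. Their medians are therefore given beside the median of -0.01 over well-expressed genes, of which 52.5% had a negative log2 fold change. Genes for potassium, water and gap junctions had the lowest median of the 37, -0.19, with 18 of 22 negative (-0.11 with F1 of the ERβ cKO (sham) group left out and -0.24 with F5 left out). Gja1, the gap junction protein connexin 43, was at 608, 714, 742 and 671 CPM in ERβ cKO (sham) mice, against 789, 805 and 928 CPM in WT (sham) mice (log2 fold change -0.30, SE 0.12, adjusted p = 0.861). Aqp4, the water channel of the endfeet, had a log2 fold change of -0.33 (SE 0.13) and Kcnj10, the potassium channel Kir4.1, of -0.31 (SE 0.13), and the groups overlapped for both.

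Glutamate and GABA handling genes had a median of -0.10, with 15 of 20 negative (-0.05 without WT (sham) F4). Slc1a2, the main glutamate transporter, was at 9802, 9518, 11889 and 9578 CPM in ERβ cKO (sham) mice, against 9963, 10606 and 12646 CPM in WT (sham) mice (log2 fold change -0.12, 95% interval -0.39 to 0.15). Slc1a4, a carrier of serine and other neutral amino acids, did not overlap between groups at 98.0 to 125 CPM in ERβ cKO (sham) mice and 133 to 151 CPM in WT (sham) mice (adjusted p = 0.820). Of 23 astrocyte factors that act on synapses 21 were negative, with a median of -0.12 (-0.08 with F1 of the ERβ cKO (sham) group left out). Sparc, a secreted matrix protein that limits synapse formation, was at 686, 676, 1024 and 919 CPM in ERβ cKO (sham) mice, against 1383, 1106 and 1057 CPM in WT (sham) mice (log2 fold change -0.52, SE 0.15, adjusted p = 0.616).

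Cholesterol synthesis, which astrocytes carry out for neurons, had 21 of 24 genes negative and a median of -0.14 (-0.09 with F1 of the ERβ cKO (sham) group left out). Insig1, which holds back the activation of that pathway, was at 47.7, 46.9, 50.5 and 52.2 CPM in ERβ cKO (sham) mice, against 55.5, 61.9 and 75.2 CPM in WT (sham) mice (log2 fold change -0.38, SE 0.13, adjusted p = 0.736). In fatty acid metabolism 21 of 30 genes were negative, with a median of -0.08 (-0.13 with F5 of the ERβ cKO (sham) group left out and -0.03 with F1 left out). Fabp7, given above, was a member at -0.67 (SE 0.19, with an adjusted p of 0.541).

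The Notch, BMP and hedgehog list, signals that set the fate of neural stem cells and glia, held 7 genes lower and 0 higher at an unadjusted p under 0.05 out of 32, of which 17 are well expressed, beside 2.09% lower among all genes tested and 1.91% among well-expressed ones. The median was -0.13 (-0.20 without WT (sham) F3 and -0.08 without WT (sham) F4). Of the 7, Sox2 and Sox9 were already given above among the leading lower genes. The others were Id2, Id3 and Id4, inhibitors of DNA binding that BMP signals induce, Bmp6, a BMP ligand, and Ptch1, the hedgehog receptor. Like all lists here, this one was chosen with earlier results of these data known, so the count is a description and not a test. Id4 was at 93.6, 108, 147 and 92.5 CPM in ERβ cKO (sham) mice, against 148, 159 and 149 CPM in WT (sham) mice (log2 fold change -0.46, SE 0.15, adjusted p = 0.684). Id2 was at 139 to 193 CPM in ERβ cKO (sham) mice, against 200.4 to 236 CPM in WT (sham) mice.

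Of the lists on energy metabolism, glycolysis without enolases had a median of -0.04, pyruvate and the TCA cycle 0.00 and the nuclear genes of the respiratory chain -0.03, while the 8 tested mitochondrially encoded genes had a median of 0.23 (0.05 without WT (sham) F1 and 0.49 without WT (sham) F4). The medians of the first 3 changed sign when single mice were left out, and ran at most from -0.12, without ERβ cKO (sham) F5, to 0.07, without WT (sham) F1. Of the 42 nuclear respiratory chain genes none had an unadjusted p under 0.05, and their log2 fold changes ran from -0.19 to 0.24. Among glycolytic genes Slc2a1, the glucose transporter GLUT1, was at 80.2, 93.1, 90.2 and 72.5 CPM in ERβ cKO (sham) mice, against 70.5, 46.0 and 70.6 CPM in WT (sham) mice (log2 fold change 0.43, SE 0.15, adjusted p = 0.792), with WT (sham) F3 below all others. Pkm, the last enzyme of glycolysis, had a log2 fold change of -0.04 (95% interval -0.28 to 0.21, and 0.05 without WT (sham) F1).

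Glucocorticoid-responsive genes had 13 of 18 positive and a median of 0.13. At an unadjusted p under 0.05 there were 4, all higher, beside 3.24% higher among all genes tested and 2.43% among well-expressed ones. Other abundant members differed little. Klf9 was at 260 to 286 CPM in ERβ cKO (sham) mice, against 248 to 273 CPM in WT (sham) mice, on the scale over 11 libraries. Mertk had a log2 fold change of -0.02. Map3k6, a stress kinase, was at 4.76 to 6.39 CPM in ERβ cKO (sham) mice, against 2.34 to 3.46 CPM in WT (sham) mice (log2 fold change 0.95, SE 0.27, adjusted p = 0.566), and Tsc22d3 is given above. Plin4, a lipid droplet protein, was at 24.5, 16.6, 17.5 and 10.2 CPM in ERβ cKO (sham) mice, against 10.9, 8.27 and 11.8 CPM in WT (sham) mice. Fkbp5, a cochaperone of the glucocorticoid receptor, had a log2 fold change of 0.31 (95% interval -0.12 to 0.75), and ERβ cKO (sham) F5 was the lowest of its group for Plin4, Map3k6 and Fkbp5.

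Estrogen-responsive genes had 16 of 28 positive and a median of 0.00. The steroid, thyroid and estrogen-related receptors had 11 of 26 positive and a median of -0.03. Both medians changed sign when single mice were left out (-0.05 to 0.05 and -0.06 to 0.04). Esr1, which encodes ERα, had 115, 87, 79 and 65 counts in ERβ cKO (sham) mice, against 97, 102 and 115 in WT (sham) mice. Of the 28 estrogen-responsive genes 1 had an unadjusted p under 0.05, beside 5.33% of all genes tested, so the list did not stand out. It was Nos3, the endothelial nitric oxide synthase, at 3.85 to 6.6 CPM in ERβ cKO (sham) mice, against 1.45 to 2.93 CPM in WT (sham) mice (log2 fold change 1.13, SE 0.32, adjusted p = 0.519).

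Reactive astrocyte genes had a median of -0.03, with 17 positive and 20 negative (0.02 with F3 of the ERβ cKO (sham) group left out and -0.16 with F5 left out). Gfap was at 1370, 1233, 1536 and 1657 CPM in ERβ cKO (sham) mice, against 1884, 1367 and 1649 CPM in WT (sham) mice. Serpina3n, a secreted protease inhibitor, ranged from 50.2 to 173 CPM in ERβ cKO (sham) mice and from 80.9 to 272 CPM in WT (sham) mice. Lcn2, a secreted lipocalin, was at 0.169, 0, 0 and 0 CPM in ERβ cKO (sham) mice, against 0.670, 0.821 and 0.0586 CPM in WT (sham) mice, near the counting limit (adjusted p = 0.820). The groups overlapped for each of these 3 genes.

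RNA processing and splicing was the list with the highest median, 0.26, and 27 of its 28 members were positive (0.15 without ERβ cKO (sham) F1 and 0.40 without WT (sham) F4). The groups overlapped for all 28 members. Srsf11, a splicing factor, was at 137, 151, 90.6 and 115 CPM in ERβ cKO (sham) mice, against 75.5, 86.6 and 118 CPM in WT (sham) mice. Malat1, an abundant RNA held in the nucleus, was at 2512, 2944, 1742 and 3335 CPM in ERβ cKO (sham) mice, against 1148, 1085 and 2537 CPM in WT (sham) mice (log2 fold change 0.73, SE 0.38, adjusted p = 0.948). ERβ cKO (sham) F4 was low in its group and WT (sham) F4 high in its own. Of the mitochondrially encoded genes, mt-Nd1 was at 1121, 1342, 813 and 1200.4 CPM in ERβ cKO (sham) mice, against 627, 872 and 1290 CPM in WT (sham) mice.

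**Figure D3:**
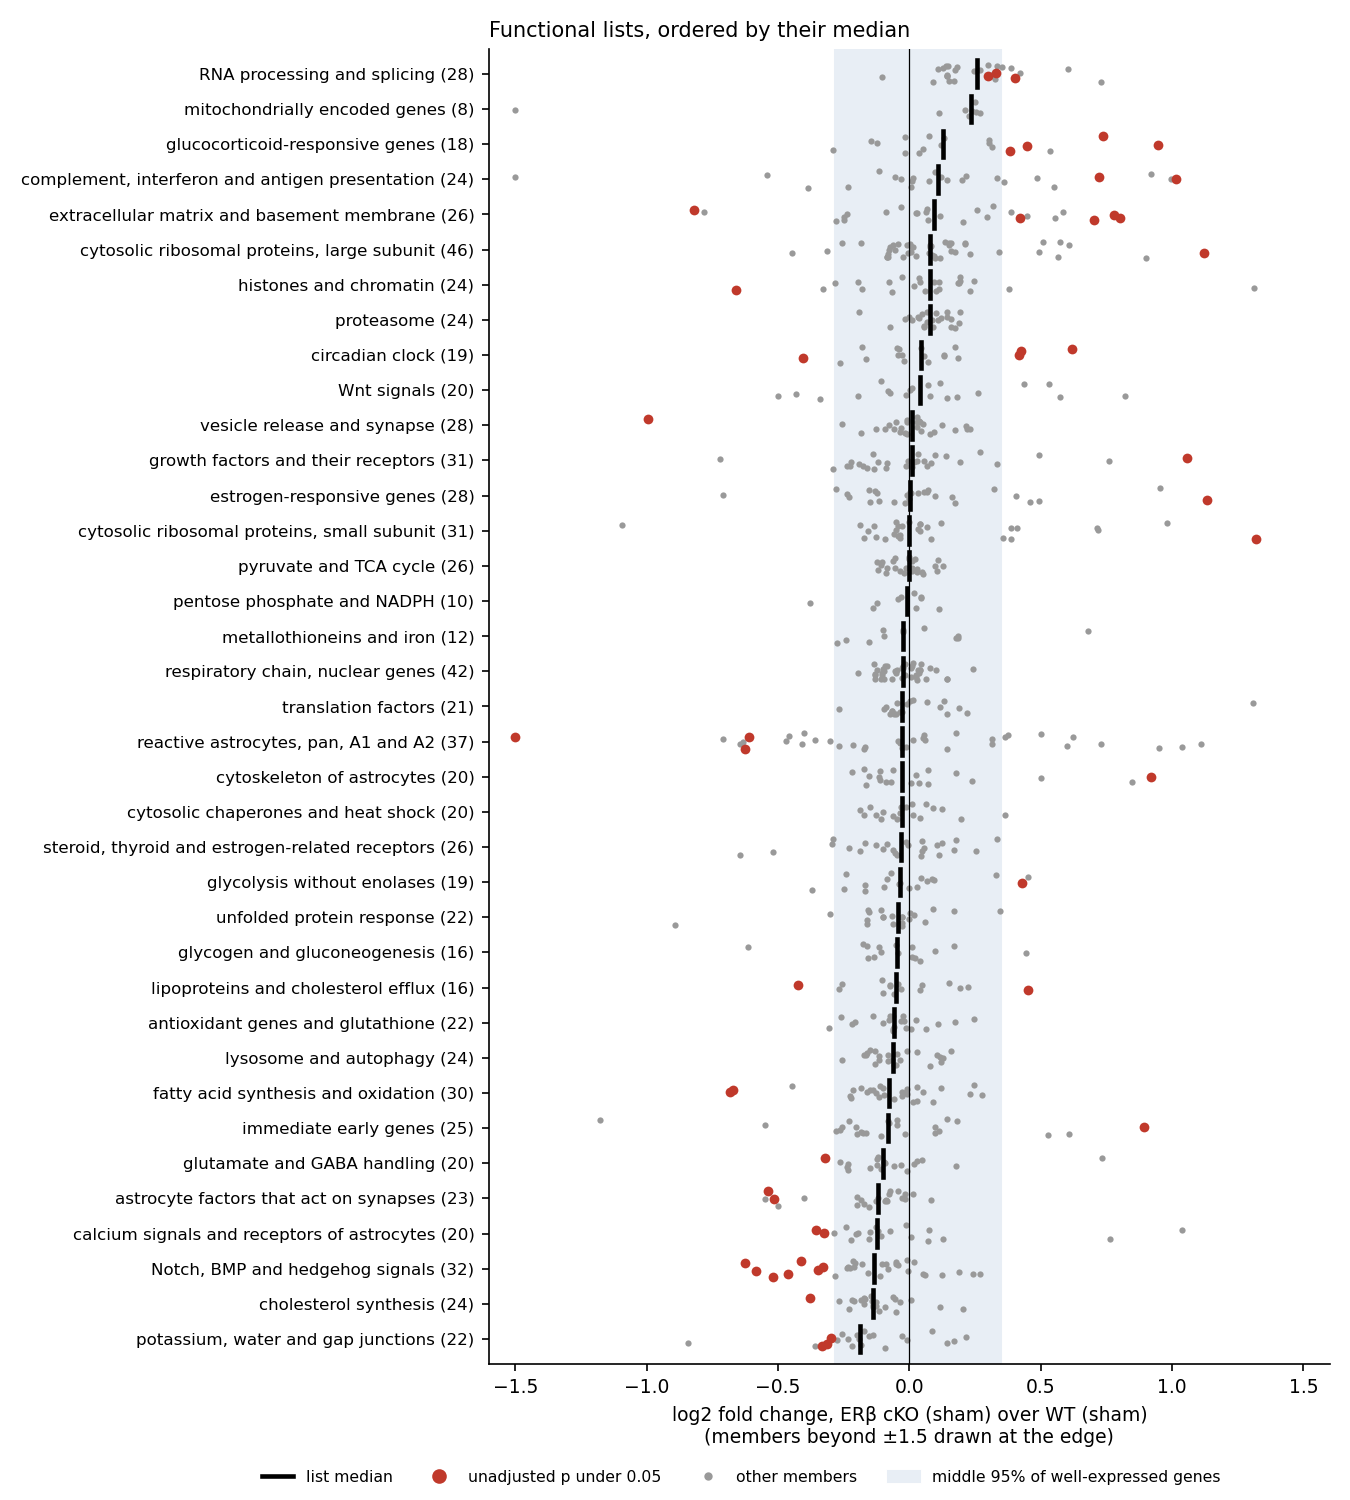
Log2 fold change, ERβ cKO (sham) over WT (sham), of every tested member of the 37 functional lists, with the number tested in brackets, list medians as black bars and members at an unadjusted p under 0.05 in red, over the middle 95% of well-expressed genes in blue. Medians run from -0.19 for potassium, water and gap junctions to 0.26 for RNA processing and splicing, and 7 of 32 genes of the Notch, BMP and hedgehog list are red on the left.

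Cell type markers are given beside these lists, and of the 12 marker lists the choroid plexus list alone held genes that passed the test. All 20 astrocyte markers were negative, and their median was -0.18 (-0.11 with F1 of the ERβ cKO (sham) group left out and -0.28 with F5 left out). Sox9 was the lowest of them at -0.52. The summed level of the list was 26871, 26837, 32223 and 32982 CPM in ERβ cKO (sham) mice, against 32517, 31084 and 35705 CPM in WT (sham) mice, so that F1 and F3 of the ERβ cKO (sham) group were low and the groups overlapped. In such pooled pulldown RNA, fewer cells of a type, less RNA per cell and a lower yield of the pulldown cannot be told apart. The part of the astrocyte level in the lower lists and in Sox2 and Sox9 was not tested.

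Endothelial, pericyte and smooth muscle markers had 15 of 18 positive, and 4 of the 18 are well expressed. Their median was 0.84 (0.63 without WT (sham) F3 and 1.27 without WT (sham) F4). At an unadjusted p under 0.05, 7 were higher and 0 lower, beside 3.24% higher among all genes tested and 2.43% among well-expressed ones. Flt1, a VEGF receptor, was at 42.7, 60.1, 44.3 and 56.1 CPM in ERβ cKO (sham) mice, against 13.7, 16.6 and 43.1 CPM in WT (sham) mice. Pdgfrb, a pericyte marker like Rgs5, did not share the rise, with a log2 fold change of -0.08 (0.17 without WT (sham) F4). On the scale over 11 libraries Pdgfrb was at 23.7 to 24.3 CPM in ERβ cKO (sham), against 20.7 to 33.5 CPM in WT (sham). The summed level of the list was 242 to 303 CPM in ERβ cKO (sham) mice, against 124, 115 and 262 CPM in WT (sham) F1, F3 and F4, so WT (sham) F4 lay within the range of the ERβ cKO (sham) mice. Adgrf5, Rgs5, Plxnd1, Fn1 of the matrix list (49.7 to 67.8 CPM in ERβ cKO (sham) mice, against 25.4, 23.6 and 49.7 CPM in WT (sham) mice) and Nos3 had positive log2 fold changes too, and the part of the marker level in them was not tested.

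Oligodendrocyte markers had 14 of 15 positive and a median of 0.39 (0.27 without ERβ cKO (sham) F1 and 0.62 without WT (sham) F4). Microglia markers, at 54.7 to 78.6 CPM summed in ERβ cKO (sham) mice and 55.5 to 75.4 CPM in WT (sham) mice, had a median of 0.06 (-0.10 without ERβ cKO (sham) F5 and 0.65 without WT (sham) F4). Neuron markers had a median of 0.04 (0.00 without WT (sham) F4). All 24 tested choroid plexus markers were negative, with a median of -1.42, and 3 of them are the genes that fell, while 23 of 25 ependymal and cilia genes were negative with a median of -0.58. Ttr, the carrier of thyroxine in cerebrospinal fluid, was at 1.24, 2.70, 0 and 1.61 CPM in ERβ cKO (sham) mice, against 24.5, 57.4 and 123 CPM in WT (sham) mice. In WT (GDX) mice, on the scale over 11 libraries, Ttr was at 0.114 to 0.687 CPM and Enpp2 at 18.7 to 29.0 CPM. Clic6 was at 0.397 to 1.74 CPM in WT (GDX) mice, Slc4a5 at 0 to 0.0573 CPM and Kcnj13 at 0 CPM. Each of these WT (GDX) levels lay below every WT (sham) mouse on that scale.

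**Figure D4:**
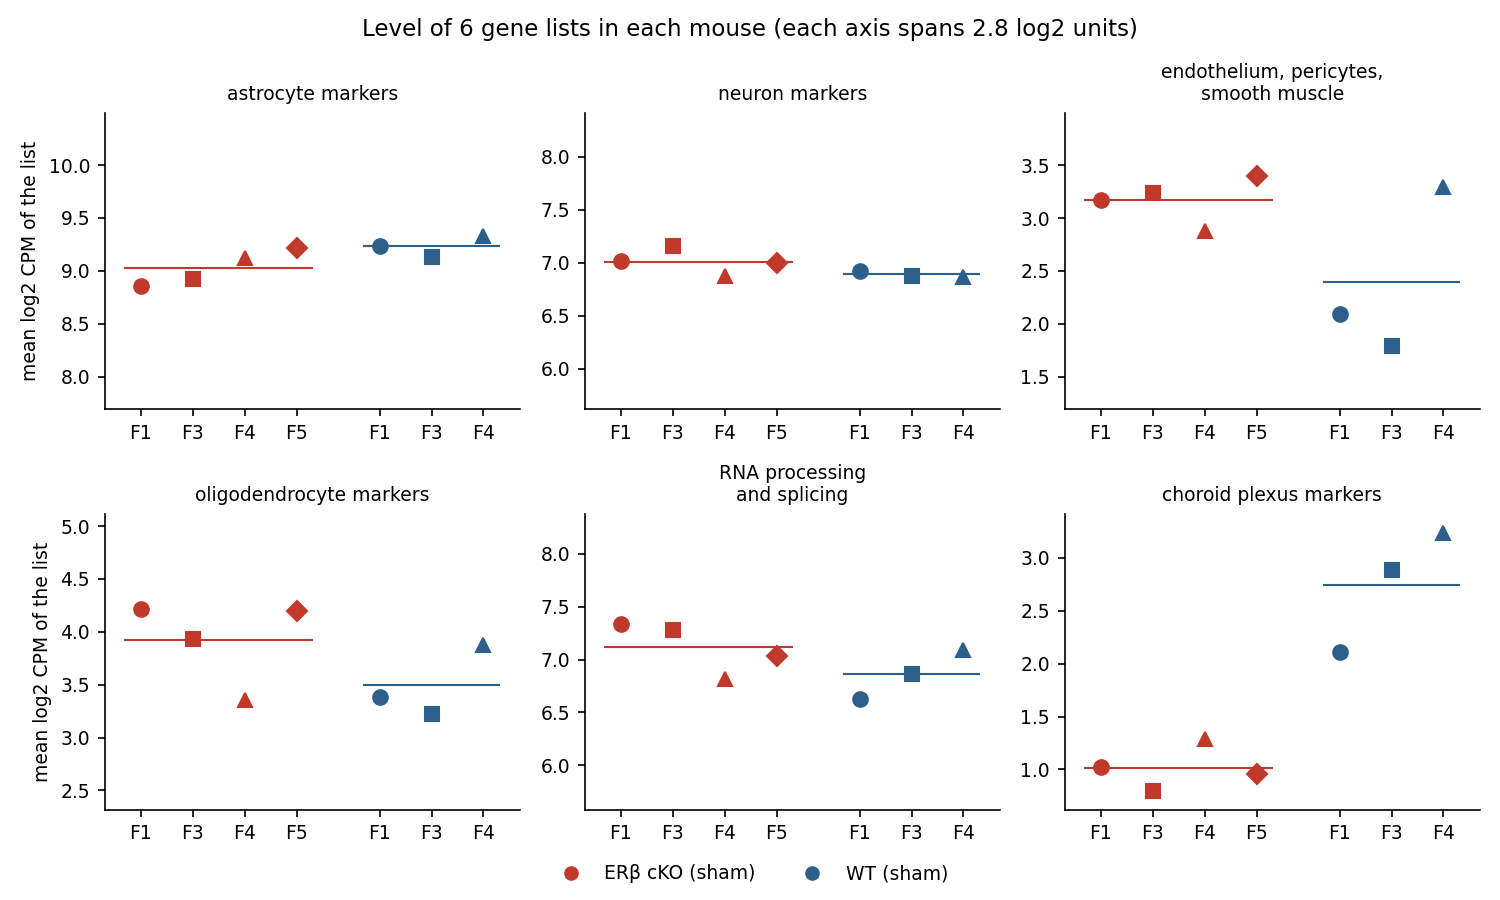
Mean log2 CPM over the members of 6 gene lists in each mouse, with ERβ cKO (sham) mice (F1, F3, F4, F5) in red left of WT (sham) mice (F1, F3, F4) in blue, lines at the group means, and axes of equal span. WT (sham) F4 lay at 3.3 for the endothelium, pericyte and smooth muscle list, among the ERβ cKO (sham) mice at 2.88 to 3.40 and above WT (sham) F1 and F3 at 2.09 and 1.79. The choroid plexus list was at 0.80 to 1.28 in ERβ cKO (sham) mice and 2.11 to 3.24 in WT (sham) mice.

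The number of calls depended on single mice, and the genes named from these fits were chosen after their values were seen. With ERβ cKO (sham) F5 left out, 29 well-expressed genes passed the test, 6 higher and 23 lower, against 1 with all mice. The lower ones included Sox2 (log2 fold change -0.66, adjusted p = 0.0135), Sox9 (-0.61, adjusted p = 0.0198), Sox1, another Sox factor of neural progenitors, Wnt7a, Fabp7, Padi2, Aldh1a1, Dhrs3, Lcat, the enzyme that esterifies cholesterol in lipoproteins, and Slc38a3, a glutamine carrier. ERβ cKO (sham) F5 was the highest ERβ cKO (sham) mouse for 23 of these 23 genes, so leaving it out lowered their group. Being called without F5 favours genes with F5 in that position, so this count largely follows from the choice of genes. Lcat, for example, was at 57.6, 68.7, 69.4 and 97.2 CPM in ERβ cKO (sham) mice, against 111, 88.0 and 95.7 CPM in WT (sham) mice.

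With WT (sham) F4 left out, 27 passed, 26 higher and 1 lower, and WT (sham) F4 was the highest WT (sham) mouse for 25 of the 26. That count too largely follows from the choice of genes. The higher ones included Flt1 (log2 fold change 1.75, adjusted p = 0.000302), Slco1a4, an organic anion carrier of brain endothelium, Adgrf5, Rgs5, Fn1, Cxcl12, a chemokine, and Col4a2, a collagen of basement membranes, together with Malat1, Coq8a, Crocc and Eno1. The lists of 29 and 27 shared 3 genes, 10.3% of the first and 11.1% of the second. Without ERβ cKO (sham) F4 the count was 7, and without each of the others it was 1 to 3.

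**Figure D5:**
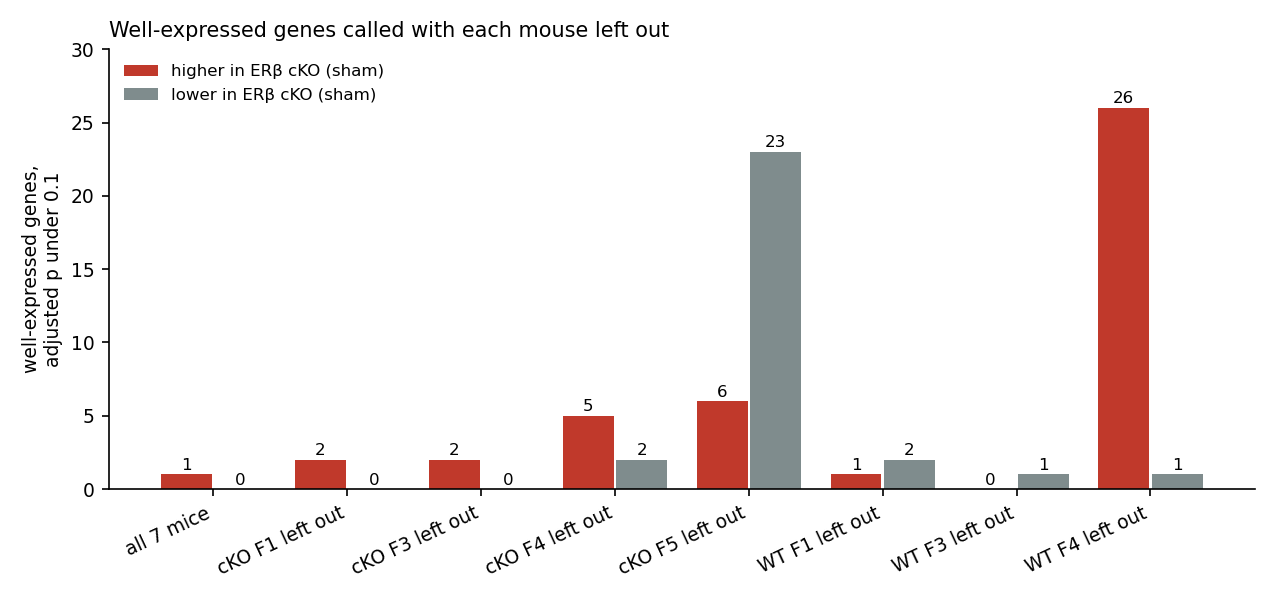
Number of well-expressed genes with an adjusted p under 0.1 (edgeR's quasi-likelihood test), higher in red and lower in grey, with all 7 mice and with each mouse left out in turn. The bar of lower genes reaches 23 without ERβ cKO (sham) F5 and the bar of higher genes 26 without WT (sham) F4, against 0 and 1 with all mice.

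A count over single mice set F5 and F1 of the ERβ cKO (sham) group apart. In ERβ cKO (sham) F5, 61 well-expressed genes lay more than 1.5-fold below all other 6 mice and 2 lay as far above them, and in ERβ cKO (sham) F1, 36 lay above and 0 below, while no other mouse had more than 10 on either side. Cntn1 was among the 61, and is named after its values were seen. Cntn1, an adhesion protein of neurons and oligodendrocytes, was at 447, 488, 499.9 and 252 CPM in ERβ cKO (sham) mice, against 406 to 510.1 CPM in WT (sham) mice (log2 fold change -0.10, and 0.08 without F5).

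The choice of test changed the calls too. DESeq2 called 12 well-expressed genes, 6 higher and 6 lower, all of them among the 30 leading genes. The higher ones were Adgrf5, Coq8a, Crocc, Eno1, Rgs5 and Tsc22d3, and the lower ones Aldh1a1, Enpp2, Eno1b, Gabra2, Sox2 and Ttr. With edgeR fitted to the well-expressed genes alone, none passed (333 at an unadjusted p under 0.05), and Eno1 then had an adjusted p of 0.341.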

How the data were processed

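RNA bound to HA-tagged ribosomes was sequenced from the hippocampus of single mice. The table the authors deposited holds a raw count for each Ensembl gene and library. Per their notes, bcl2fastq 2.17 split the reads, Trimmomatic trimmed them, and QuasR handled alignment to mm10 and counting. How strand and reads with several matches were treated, and which annotation was used, is not given in the sources used here, so antisense and near-identical genes are uncertain. Names were taken from GENCODE M21 for 37693 of 39017 identifiers. The other 1324 hold 0.492% of counts.

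Counts were normalized by TMM and tested in R 4.3.3 by the quasi-likelihood test of edgeR 4.0.16 (robust, limma 3.58.1), with p values adjusted by the Benjamini-Hochberg method and a threshold of 0.1. The code was tested on simulated data. CPM are relative to the TMM-scaled library size. SE and 95% intervals are on the log2 scale. Permutation used log2 CPM with 0.5 added.

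The comparison, the 49 gene lists (37 functional, 12 of cell type markers, 1098 of 1099 symbols matched) and the tests were chosen with earlier results of these data known. Named genes were those changed, the 15 higher and 15 lower well-expressed genes with groups that do not overlap and the smallest p, and for each list up to 3 members with the highest CPM and up to 3 with the smallest p (for markers, up to 4 with the highest CPM). Cdc42bpa, Id3, Bmp6 and Ptch1 were added after their values were seen. Alternatives were DESeq2 1.42.0, other normalizations and filters, the likelihood ratio test, no robust estimation, all 11 libraries, the mouse number as a block, a threshold of 0.05 and leaving out each mouse. Nothing in the labels says that mouse numbers pair mice across groups. Promoter sequences are from RefSeq (GRCm38.p6). Counting error sets the limit for genes near 0.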

Additional observations from a re-analysis of the deposited data

Results flagged for a closer look

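Megf6 was at 2.44 CPM in ERβ cKO (sham) F4, while F1, F3 and F5 of that group lay close together at 4.0 to 4.04 CPM. Lrig1 was at 114 CPM in ERβ cKO (sham) F4, against 87.0 to 88.8 CPM in the other 3 mice of the group. In both cases 1 mouse lay far from the other 3 by Dixon's test on the 4 values, which was applied to 35 named genes. Chance marks about 1 in 20 such groups, and 2 of 35 were marked.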

How the results depend on the processing

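With all mice and edgeR's quasi-likelihood test, 6 genes were called, 1 of them well expressed. The counts were within 1.5 times of these with DESeq2 size factors, library size alone, the filterByExpr filter and a threshold of 0.05. No filter gave 39 calls, 8 of them well expressed. DESeq2 gave 52 and 12, the likelihood ratio test 100 and 20, no robust estimation 10 and 3, and a fit to all 11 libraries 16 and 4. Fitting edgeR to genes with a mean CPM of 20 or more gave 0 calls (333 at an unadjusted p under 0.05). Leaving out each mouse in turn gave 7 to 67 calls over all genes and 1 to 29 among well-expressed genes. The largest counts over all genes were without WT (sham) F4 (67) and ERβ cKO (sham) F5 (52), followed by 29 without ERβ cKO (sham) F4, 15 without WT (sham) F1 and 11 without ERβ cKO (sham) F1. None of the 35 genes that changed or led the lists of higher and lower genes turned its sign under these settings. The leading genes were chosen for groups that do not overlap, so leaving out a mouse cannot bring their group means across each other. Their constant sign is therefore no measure of how firm they are. Of 239 other genes named by the rule 57 did so under at least 1 setting, Esr2 and Pkm among them, as did 6 of 12 named after their values were seen (Cdc42bpa, Cntn1, Gm11560, Gm6548, Lrrk2 and Rpl30). Esr2 was -0.65, and 0.31 without WT (sham) F3. On normalization, the all-gene median log2 fold change stayed between 0.00 and 0.02 under the other normalizations. The cause of these differences between settings was not tested.

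With the mouse number as a block, 76 genes were called, 39 of them well expressed. Nothing in the labels says that the number pairs mice. Deviations of ERβ cKO (sham) and WT (sham) mice with the same number correlated at -0.06 for F1, 0.04 for F3 and -0.14 for F4. For unlike numbers the correlations ran from -0.10 to 0.09. So few pairs cannot show whether mice were paired. In the fit with blocks, ERβ cKO (sham) F5 is alone in its block and so adds nothing to the comparison. Of the 29 genes called without F5, 28 were among the 39.

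Depth limits genes near 0 such as Esr2 and Lcn2, and 4 mice against 3 limit all others.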
